A study of Mus musculus with 6 samples.

Results

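The genes that send, receive and restrain the transforming growth factor-β (TGF-β) signal were followed in the liver transcriptome of Vps15LKO mice. They comprised 10 genes of the 56305 in the RNA-Seq table, chosen by name with earlier results of these data known. These were the ligands Tgfb1, Tgfb2 and Tgfb3, the activin subunit Inhbe, the matrix protein Ltbp2, the receptors Tgfbr1 and Tgfbr2, the signal transducers Smad2 and Smad3, and the inhibitor Smad7. Each was found by its gene symbol, which the annotation matched to an Ensembl identifier. The study asked how loss of class 3 PI3K, the lipid kinase complex that Vps15 holds together, acts on the metabolic clock of the liver. Poly(A) RNA was sequenced from 3 WT and 3 Vps15LKO livers, 1 library each. All livers came from male mice of 5 weeks, fed ad libitum and collected at ZT6, that is 6 h after lights on. Vps15LKO mice were AlbCre+;Vps15f/f, so that Cre driven by the albumin promoter, which is active in hepatocytes, deleted Vps15, and cells that never expressed albumin kept the gene. WT denotes the control mice, whose floxed or Cre alleles the labels do not give.

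TGF-β is secreted as an inactive complex that is stored in the matrix until integrins or proteases release it. The free ligand binds TGFBR2, which recruits and phosphorylates TGFBR1, and TGFBR1 phosphorylates SMAD2 and SMAD3, which enter the nucleus with SMAD4. SMAD7 is itself induced by the signal and blocks the activated receptor, and in the liver the pathway is best known for turning stellate cells into collagen-producing myofibroblasts and for slowing hepatocyte division.

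The values are normalized counts, the reads of a gene divided by 1 DESeq2 size factor per library. The libraries held 16137093 to 18110223 reads on genes, and the size factors were 0.742 to 0.801 in WT and 1.23 to 1.41 in Vps15LKO livers. The genotypes therefore differ in scaling as well as in expression. When each library was instead scaled to the same total of reads, the tested genes as a whole moved up by a median of 0.72 (log2), and by 0.12 with upper quartile scaling. Pik3r4, which encodes Vps15, stood at 508, 573 and 459.7 normalized counts in WT liver and at 341, 362 and 355 in Vps15LKO liver (log2 fold change −0.54 ± 0.11, SE, adjusted p = 0.00207). Under total-read scaling its log2 fold change was 0.19 and was not called, so that the direction of the targeted gene rests on the scaling. Gene-level counts do not tell the deleted exons from the others. Libraries of a genotype differed by a chi-square per gene of 14.6 to 40.8, and WT replicate 3 stood apart from the other WT libraries (34.0 and 29.7, against 14.6 between those), as did Vps15LKO replicates 2 and 3 from each other (40.8). Without WT replicate 3, 8 of the 10 genes were still called higher and 1 lower. Hepatocyte markers were measured in all livers, and their summed level ran from 2919715 to 3266198 in the WT group and from 912352 to 1352321 in the Vps15LKO group (normalized counts).

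All 3 TGF-β ligands and both of their receptors rose in Vps15LKO liver, with Tgfb2 17.1-fold, Ltbp2 6.81-fold, Tgfbr2 6.75-fold and Tgfb3 6.38-fold higher in mean normalized count. Smad3 and Smad7 rose 2.04-fold and 1.41-fold, Smad2 was not called, and Inhbe was 1.99-fold lower. RNA of the whole liver was measured, so fewer cells of a type and less RNA per cell cannot be told apart. All 10 genes passed the filter on low values (20 normalized counts or more in 3 or more livers). Of these, 8 were called higher and 1 lower in Vps15LKO liver by limma, with thresholds of 0.05 for the Benjamini-Hochberg adjusted p and 1.2 for the fold. Among all 15430 genes tested, 66.5% were called, 33.5% higher and 33.0% lower. In 8 of the 10 genes all Vps15LKO livers lay above all WT livers, against 36.4% of all tested genes, and in 1 they lay below, against 36.8%. No overlap either way was found for 73.2% of all tested genes. The 10 log2 fold changes had a median of 1.43, and those of all tested genes a median of −0.02. Under total-read scaling 9 of the 10 genes were called higher and 0 lower, where 66.8% of all tested genes were called higher and 11.1% lower.

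**Figure D1:**
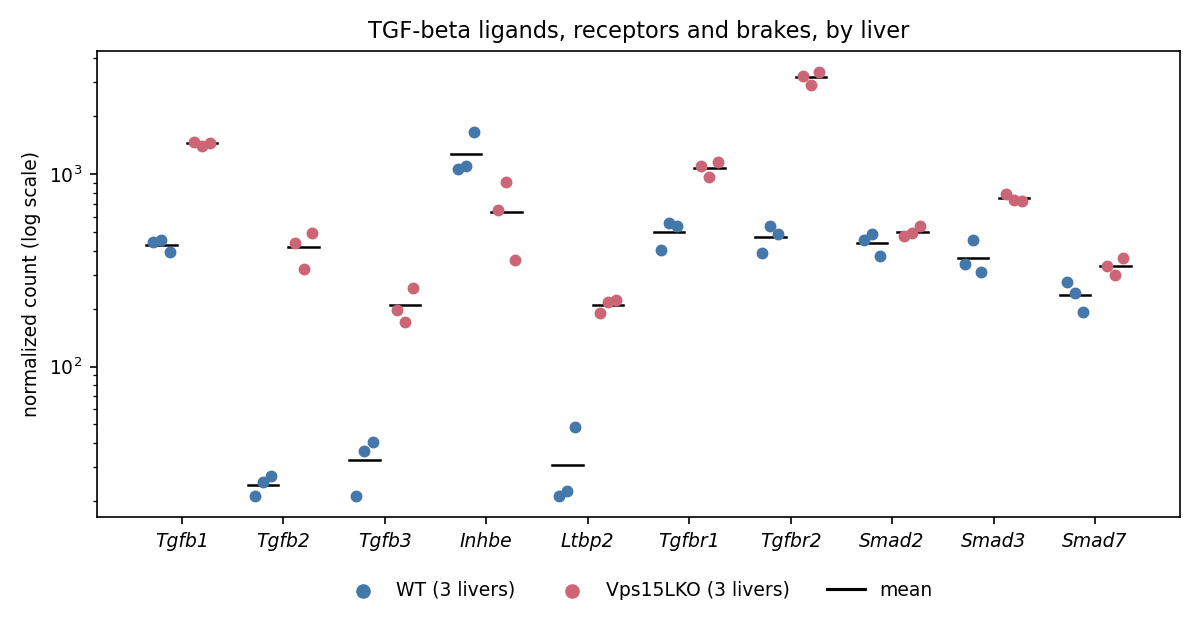
Normalized counts (log scale) of the 10 genes in the 3 WT (blue) and 3 Vps15LKO (red) livers, each point a liver and each bar a mean. Tgfb2 is at 21.2 to 27.0 in WT and 323 to 492 in Vps15LKO livers, Inhbe is the only 1 of the 10 genes whose Vps15LKO livers all lie below WT, and Smad2 overlaps.

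Tgfb1 (ENSMUSG00000002603, GRCm38 chromosome 7, 25687002 to 25705077, plus strand) encodes the most widely expressed TGF-β isoform. It gave 446, 452 and 392 normalized counts in the 3 WT libraries and 1475, 1398 and 1454 in those of Vps15LKO mice. The Vps15LKO values lay close together and far above WT. It was higher by 1.75 ± 0.09 on the log2 scale (SE, adjusted p = 1.81e-06), with 291 to 362 reads behind each WT value.

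Tgfb2 (ENSMUSG00000039239, chromosome 1, 186622792 to 186705989, minus strand) encodes an isoform that needs the co-receptor betaglycan to bind TGFBR2 well. It gave 21.2, 25.0 and 27.0 normalized counts in the 3 WT libraries and 436, 323 and 492 in those of Vps15LKO mice. The lowest Vps15LKO liver was thus far above the highest WT liver, and the Vps15LKO livers also spread more widely among themselves (417 ± 86.2, SD, n = 3) than for Tgfb1. The WT values rest on 16 to 20 reads per library. Its log2 fold change, 4.03 ± 0.19 (SE, adjusted p = 1.16e-06), was the largest of the 10 genes. It ran from 3.62 to 4.73 over all alternative settings, and it was called under each of them.

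Tgfb3 (ENSMUSG00000021253, chromosome 12, 86056745 to 86079041, minus strand) encodes the third isoform, which like TGF-β1 binds TGFBR2 directly. It gave 21.2, 36.2 and 40.4 normalized counts in the 3 WT libraries and 198, 171 and 255 in those of Vps15LKO mice, again without overlap. Tgfb3 rose by 2.67 ± 0.26 log2 units (SE, adjusted p = 4.07e-05). Exons of Tgfb3 share 163 bases with Gm37804 and 257 bases with Gm48008 on the other strand, and exons of Tgfb2 share 124 bases with Gm29491. Whether counting used strand is not given in the sources used here, but these antisense genes held at most 35, 24 and 14 reads in any library. The protein-coding gene Ttll5, on the other strand, overlaps the bounds of Tgfb3, shares no exon bases with it and held up to 284 reads.

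Promoter sequences from RefSeq (GRCm38.p6) were matched for 7 of the 10 genes, with 8 start sites. Those of Tgfb1 and Tgfb2 are shown because these ligands were the most and the least abundant TGF-β in WT liver and differed most in fold change. The 250 bases before each start site are written 5′ to 3′ on the strand of the gene, and capitals mark the motifs found. They are chr7:25686752-25687001, plus strand, for Tgfb1 and chr1:186705990-186706239, minus strand, for Tgfb2.
Tgfb1: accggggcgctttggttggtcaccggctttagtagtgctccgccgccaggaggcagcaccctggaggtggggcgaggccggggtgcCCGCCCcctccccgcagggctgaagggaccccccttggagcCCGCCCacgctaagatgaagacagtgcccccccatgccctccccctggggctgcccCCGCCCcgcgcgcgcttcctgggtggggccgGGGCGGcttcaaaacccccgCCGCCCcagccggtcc
Tgfb2: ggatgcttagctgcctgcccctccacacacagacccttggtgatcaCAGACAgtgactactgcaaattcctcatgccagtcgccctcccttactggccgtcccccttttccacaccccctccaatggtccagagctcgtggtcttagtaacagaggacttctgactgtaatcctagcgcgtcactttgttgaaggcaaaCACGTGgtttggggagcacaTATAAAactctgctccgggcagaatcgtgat

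The capitals in the Tgfb1 promoter are 5 GC boxes (GGGCGG, read on either strand), and 75.2% of its bases are G or C. The Tgfb2 promoter has no GC box and 53.6% G or C. Its capitals are a SMAD box with flank (CAGACA) 204 bases, a canonical E-box (CACGTG) 51 bases and a TATA box (TATAAA) 31 bases before the start. Of 32851 mouse promoter windows of the same length, 32.7% hold GGGCGG, 17.1% CAGACA, 6.02% CACGTG and 12.4% TATAAA on either strand. Over the 8 start sites, GGGCGG was found at 4 (Tgfb1, the first start of Tgfbr1, Smad3 and Ltbp2) and CAGACA at 2 (Tgfb2 and the second start of Tgfbr1). The SMAD palindrome (GTCTAGAC, 0.167% of all windows), the AP-1 site (TGANTCA, 6.75%) and the CRE (TGACGTCA, 1.55%) were at none of the 8. The Tgfbr2 window held none of the motifs searched. A match of letters is not a measured binding site.

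Per kb of annotated exon, the 3 ligands summed to 98.3, 105 and 94.4 normalized counts in WT and to 426, 383 and 449 in Vps15LKO livers. Tgfb1 made up most of this sum in every liver. Its share was 82.4% to 89.9% in WT and 64.3% to 72.3% in Vps15LKO livers, while that of Tgfb2 was 3.73% to 4.93% in WT and 14.5% to 18.9% in Vps15LKO livers. The share of Tgfb3 was 6.38% to 12.7% in WT and 13.2% to 16.8% in Vps15LKO livers. These shares do not depend on the size factor of a library, and none of the 3 overlapped between genotypes.

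**Figure D2:**
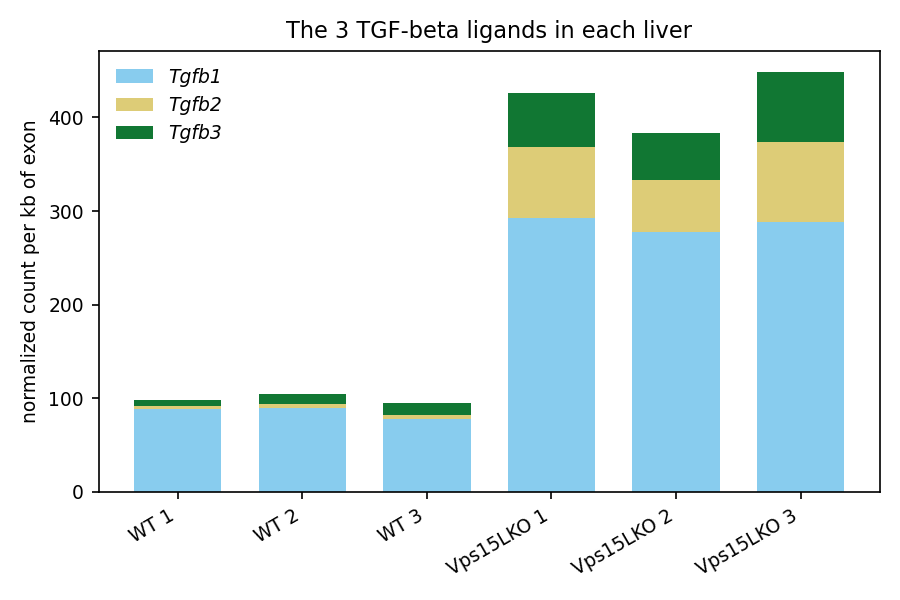
Normalized counts per kb of exon of Tgfb1, Tgfb2 and Tgfb3 stacked for each of the 6 livers. The sum is 94.4 to 105 in WT and 383 to 449 in Vps15LKO livers, and Tgfb2 takes 3.73% to 4.93% of it in WT and 14.5% to 18.9% in Vps15LKO livers.

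Inhbe (ENSMUSG00000047492, chromosome 10, 127348857 to 127354411, minus strand) encodes the β-subunit of activin E, a secreted member of the TGF-β superfamily made mainly by hepatocytes. It gave 1066, 1100.5 and 1655 normalized counts in the 3 WT libraries and 653, 906 and 359 in those of Vps15LKO mice. The groups did not overlap, but both spread widely, and WT replicate 3 and Vps15LKO replicate 3 lay farthest apart. Inhbe fell, with a log2 fold change of −1.06 ± 0.31 (SE, adjusted p = 0.0153). Without Vps15LKO replicate 3 it was −0.70 and without WT replicate 3 −0.86 (adjusted p = 0.0490), and it was called in both cases. Under total-read scaling it was −0.34 (adjusted p = 0.288) and was not called. The antisense gene Gm47200 lies within the bounds of Inhbe, shares no exon bases with it and held up to 421 reads. Inhbe is shown with 30 bases from its RefSeq promoter window (GRCm38.p6, chr10:127352011-127352040, minus strand) because they hold the only match of the motifs searched there.
Inhbe: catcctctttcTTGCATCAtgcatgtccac

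The capitals, read on the other strand, are the core of an amino acid response element (TGATGNAA), 181 bases before the start. Of the 32851 windows 3.45% hold this core, and among the 8 start sites it was only at Inhbe. The GENCODE annotation counts all 250 bases of this window as exon, so "before the start" holds for the RefSeq start only.

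Ltbp2 (ENSMUSG00000002020, chromosome 12, 84783212 to 84876532, minus strand) encodes a protein of elastic microfibrils that resembles the latent TGF-β binding proteins but does not itself bind latent TGF-β. It gave 21.2, 22.5 and 48.5 normalized counts in the 3 WT libraries and 189, 216 and 223 in those of Vps15LKO mice. WT replicate 3 stood above the other WT livers and still far below all Vps15LKO livers, and without it the log2 fold change was 3.20. Ltbp2 rose by 2.83 ± 0.30 log2 units (SE, adjusted p = 5.7e-05). Exons of Ltbp2 share 764 bases with the antisense gene D030025P21Rik, which held at most 15 reads.

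Tgfbr2 (ENSMUSG00000032440, chromosome 9, 116084293 to 116175360, minus strand), the receptor that binds the ligand, gave 391, 535 and 488 normalized counts in the 3 WT libraries and 3225, 2920.5 and 3394 in those of Vps15LKO mice. This was a rise of 2.76 ± 0.13 on the log2 scale (SE, adjusted p = 1.05e-06). Tgfbr1 (ENSMUSG00000007613, chromosome 4, 47353222 to 47414931, plus strand), the receptor that phosphorylates the Smads, stood at 404, 558 and 537 normalized counts in WT liver and at 1095, 963 and 1159.9 in Vps15LKO liver. Neither receptor overlapped between genotypes, and Tgfbr1 had a log2 fold change of 1.11 ± 0.14 (SE, adjusted p = 0.000149). The ratio of Tgfbr1 to Tgfbr2 normalized counts was 1.03, 1.04 and 1.10 in WT and 0.340, 0.330 and 0.342 in Vps15LKO liver.

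Smad3 (ENSMUSG00000032402, chromosome 9, 63646767 to 63757994, minus strand), which binds DNA directly once phosphorylated, gave 342, 452 and 311 normalized counts in the 3 WT libraries and 790.4, 735 and 728 in those of Vps15LKO mice. Smad3 rose by 1.04 ± 0.14 log2 units (SE, adjusted p = 0.00022), with no overlap. Smad2 (ENSMUSG00000024563, chromosome 18, 76241580 to 76310963, plus strand), whose main form does not bind DNA directly, stood at 453, 486 and 377 normalized counts in WT liver and at 474, 493 and 538 in Vps15LKO liver. The Smad2 groups overlapped, since WT replicate 2 exceeded Vps15LKO replicate 1. Smad2 differed by 0.20 ± 0.12 on the log2 scale (SE, adjusted p = 0.166), so a difference was not called. Smad2 was called higher with upper quartile scaling (0.32) and with total-read scaling (0.92).

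Smad7 (ENSMUSG00000025880, chromosome 18, 75367529 to 75395935, plus strand), the inhibitory Smad, gave 274, 242 and 193 normalized counts in the 3 WT libraries and 332, 301 and 367 in those of Vps15LKO mice. Every Vps15LKO liver was above every WT liver, but the gap between the nearest livers was small. Smad7 rose by 0.50 ± 0.15 log2 units (SE, adjusted p = 0.0156), the smallest among the 9 called genes. Without WT replicate 3, the lowest WT liver, its log2 fold change was 0.36. Smad7 was no longer called without Vps15LKO replicate 3 (0.43, adjusted p = 0.0573), nor at a fold of at least 1.5 or an adjusted p under 0.01.

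**Figure D3:**
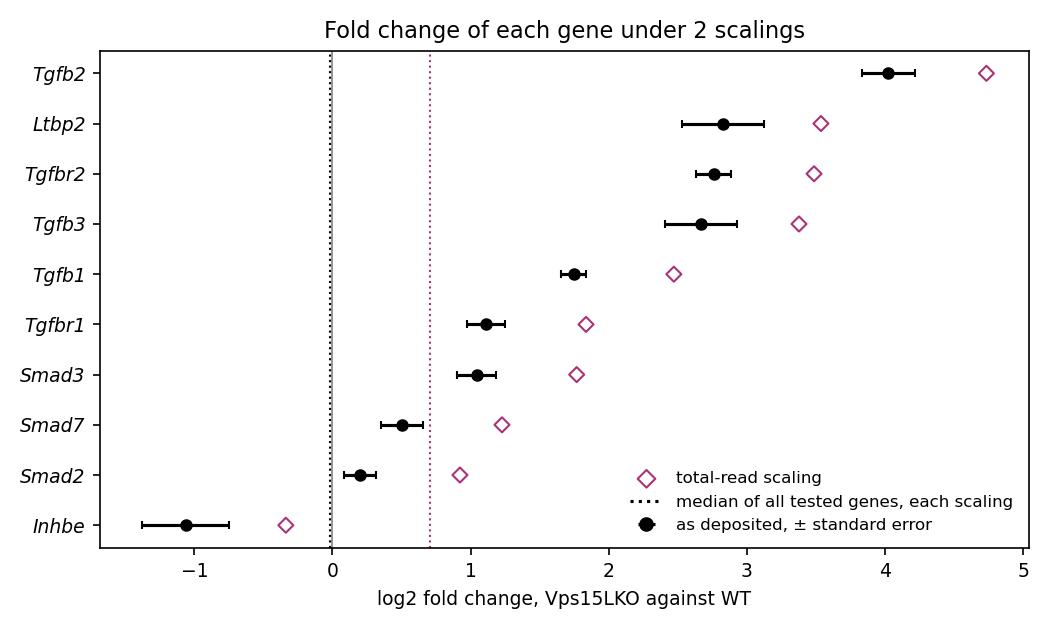
Log2 fold change of each gene in Vps15LKO against WT liver, as deposited (points, bars ± 1 standard error) and under total-read scaling (diamonds), with the median of all tested genes as dotted lines at −0.02 and 0.70. Tgfb2 leads at 4.03 and Inhbe is lowest at −1.06, and total-read scaling moves every gene to the right by about the shift of that median.

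Compared per kb of exon, the mean levels stood in a different order in each genotype. In WT livers Inhbe was highest (239.5 ± 62.2 normalized counts per kb, SD, n = 3), and Ltbp2 was lowest (3.76 ± 1.88). Between them came Tgfb1 (85.3 ± 6.51), Tgfbr1 (76.5 ± 12.7), Smad3 (66.5 ± 13.4), Tgfbr2 (57.6 ± 8.94), Smad7 (52.3 ± 9.1) and Smad2 (49.99 ± 6.34), and then Tgfb3 (9.64 ± 2.99) and Tgfb2 (4.21 ± 0.504). From Tgfb1 to Smad2 each gene overlapped its neighbour within 1 SD, as did Tgfb2 and Ltbp2, while the steps from Inhbe to Tgfb1, from Smad2 to Tgfb3 and from Tgfb3 to Tgfb2 were larger than the SDs. In Vps15LKO livers Tgfbr2 was highest (388 ± 29.3 per kb), followed by Tgfb1 (286 ± 7.95), Tgfbr1 (164 ± 15.4) and Smad3 (136 ± 6.14). The steps between these 4 were larger than their SDs. Inhbe (120.2 ± 51.5), Smad7 (73.7 ± 7.35), Tgfb2 (72.0 ± 14.9), Tgfb3 (61.5 ± 12.7) and Smad2 (57.1 ± 3.71) followed, each overlapping its neighbour and Inhbe overlapping Smad3. Ltbp2 stayed lowest (25.6 ± 2.15) and apart from Smad2.

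The balance between paired genes was compared as the log2 ratio of their normalized counts within each liver, which no scaling of the library can change. In all 7 ratios examined the WT and Vps15LKO livers did not overlap, as was also so for 73.2% of the single genes tested, and ratios of other gene pairs were not computed. An exact two-sided permutation test of 3 livers against 3 cannot give less than p = 0.1, and each ratio gave p = 0.1 (also 0.1 after Benjamini-Hochberg adjustment over the 7). The ratio of Tgfb2 to Tgfb1 was 0.0476, 0.0552 and 0.0687 in WT and 0.296, 0.231 and 0.338 in Vps15LKO livers, a log2 difference of 2.33 ± 0.22 (SE). The highest WT ratio was well below the lowest Vps15LKO ratio. The ratio of Tgfb3 to Tgfb1 was 0.0476, 0.0801 and 0.103 in WT and 0.134, 0.122 and 0.176 in Vps15LKO livers. It differed by 0.96 ± 0.36 (SE) on the log2 scale, and that of Tgfbr1 to Tgfbr2 by −1.65 ± 0.03 (SE). The last was the tightest of the 7, with an SD of 0.05 in WT and 0.03 in Vps15LKO livers.

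The ratio of Smad3 to Smad2 was 0.754, 0.931 and 0.825 in WT and 1.67, 1.49 and 1.36 in Vps15LKO livers. The genotypes differed in this ratio by a log2 value of 0.85 ± 0.12 (SE). The ratio of the inhibitor Smad7 to Smad3 was 0.802, 0.536 and 0.619 in WT and 0.420, 0.409 and 0.504 in Vps15LKO livers. The ratio was lower in the Vps15LKO livers, by −0.54 on the log2 scale (standard error 0.19), with little distance between the nearest livers. The ratio of Ltbp2 to Ltbp1 was 0.356, 0.286 and 1 in WT and 1.65, 1.56 and 1.92 in Vps15LKO livers. It differed by 1.87 ± 0.56 log2 units (SE), with WT replicate 3 apart from the other WT livers. The ratio of Inhbe to Inhbc, which encodes the related activin C subunit, was 0.554, 0.631 and 0.863 in WT and 1.71, 1.27 and 1.01 in Vps15LKO livers. Inhbc had the larger fall of the pair, and the ratio differed by 0.96 ± 0.29 log2 units (SE).

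**Figure D4:**
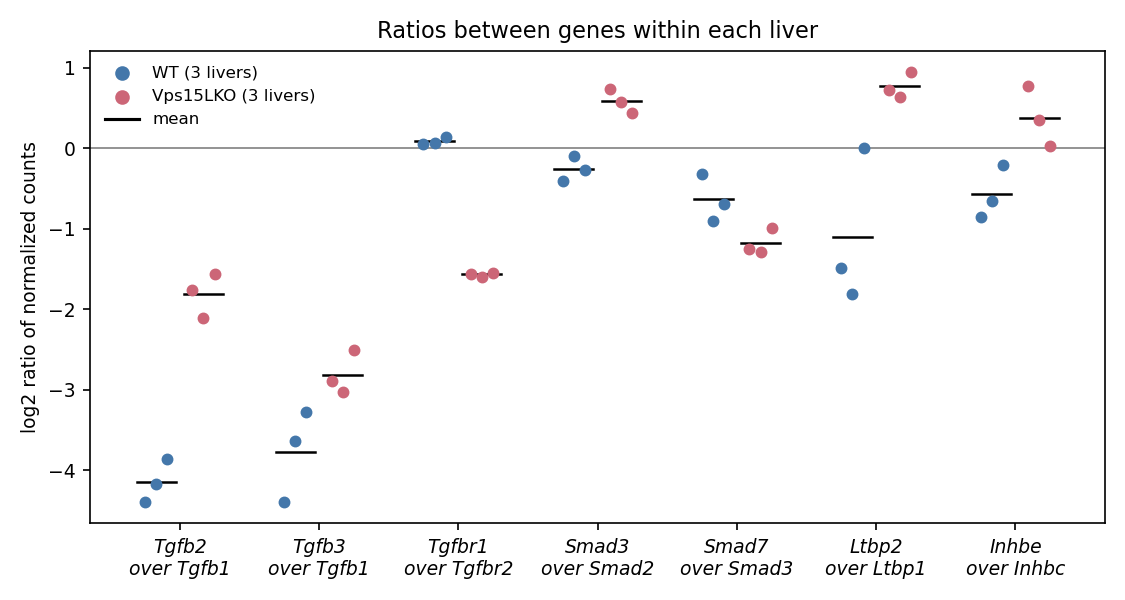
Log2 ratio of normalized counts of 7 gene pairs within each liver, WT in blue and Vps15LKO in red, with bars at the means. No pair overlaps between genotypes, and the distance is widest for Tgfb2 over Tgfb1 (2.33) and narrowest for Smad7 over Smad3 (−0.54).

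These 10 genes were set beside 116 other genes of the pathway, also chosen with earlier results known, of which 99 passed the filter. Of these, 57 were called higher (57.6%) and 16 lower, which makes 73.7% called either way, beside 33.5% higher and 66.5% either way among all tested genes. Their median log2 fold change was 0.76, against −0.02 over all tested genes. Under total-read scaling 84 were higher and 5 lower, beside 66.8% and 11.1% of all tested genes. The filter let in genes that reached 20 normalized counts in Vps15LKO livers alone. With 20 normalized counts required in all 6 livers, 46 of 87 pathway genes were called higher (52.9%) and 16 lower (18.4%), beside 27.9% higher and 36.2% lower among all 13101 genes left. They are described by layer of the pathway.

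Downstream of the receptors, 18 of 26 target genes of TGF-β were called higher and 2 lower (Angptl4 and Cdh2), with a median log2 fold change of 2.05 (22 higher and 1 lower, Angptl4, under total-read scaling). Col1a1, the main fibrillar collagen chain of scar tissue, stood at 229, 251 and 419 normalized counts in WT liver and at 5233, 5804 and 7342 in Vps15LKO liver (log2 fold change 4.39 ± 0.22, SE). Lox, which cross-links collagen, rose by 4.54 ± 0.27 log2 units (SE) from 9.94 ± 3.58 normalized counts in WT (SD, n = 3). All its WT values were under 20, so it passed the filter through the Vps15LKO livers alone, and with a pseudocount of 10 its log2 fold change was 3.69. Cdkn1a, the cell cycle inhibitor p21, rose by 4.30 ± 0.39 log2 units (SE) and Col3a1, another fibrillar collagen, by 3.58 ± 0.21 log2 units (SE). The WT livers held no more than 3 reads of Timp1 and Cdkn2b. Both, like Lox, passed the filter through the Vps15LKO livers alone, and with 20 normalized counts required in all 6 livers, which left these 3 out, 15 of 23 target genes were called higher and 2 lower, with a median log2 fold change of 1.79. Many of these genes have other inducers, and Col1a1, Col1a2, Col3a1 and Acta2 are also stellate cell markers.

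Among 18 tested genes that store or release latent TGF-β, 15 were called higher and 2 lower, with a median log2 fold change of 1.40 (16 and 2 under total-read scaling). Thbs1, a secreted activator of latent TGF-β, stood at 15.9, 36.2 and 25.6 normalized counts in WT liver and at 493, 417 and 712 in Vps15LKO liver (log2 fold change 4.37 ± 0.30, SE). Mmp2, a matrix protease, rose by 3.30 ± 0.24 log2 units (SE), Fbn1, the fibrillin to which the latent complex is anchored, by 3.13 ± 0.18 log2 units (SE) and Ltbp3, a true latent TGF-β binding protein, by 2.18 ± 0.13 log2 units (SE). Ltbp1, which holds latent TGF-β in the matrix, stood at 59.7, 78.7 and 48.5 normalized counts in WT liver and at 115, 139 and 116 in Vps15LKO liver (log2 fold change 0.99 ± 0.20, SE). The 2 genes called lower were Plg (log2 fold change −1.80), the plasminogen made by hepatocytes, and Furin (−1.10), the protease that cleaves the TGF-β precursor.

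Of 19 tested brakes other than Smad7, 13 were called higher and 4 lower, with a median log2 fold change of 0.95 (17 and 0 under total-read scaling). Pmepa1, a target gene whose product keeps Smads from the receptor, rose by 2.66 ± 0.16 log2 units (SE) and Fst, the follistatin that traps activins, by 2.63 ± 0.20 log2 units (SE). Htra1, a protease reported to act on TGF-β signalling, rose by 2.01 ± 0.19 log2 units (SE) and Tgif1, a Smad co-repressor, by 1.69 ± 0.18 log2 units (SE). The 4 genes called lower were Ppm1a (log2 fold change −0.90), Chrd (−0.65), Strap (−0.39) and Smurf2 (−0.37), a phosphatase of Smads, a BMP antagonist, a receptor-associated protein and a ubiquitin ligase. Under total-read scaling Ppm1a (−0.17) and Chrd (0.07) were not called, and Strap (0.34) and Smurf2 (0.36) were called higher. Plg, Furin, Angptl4, Cdh2 and the 4 brakes called lower were named after their values were seen.

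Calls went both ways among the other receptors and the other Smads. Of 12 tested receptors and co-receptors 3 were called higher and 3 lower, with a median log2 fold change of 0.02. Of 11 Smads and nuclear partners 2 were called higher and 2 lower, with a median of 0.21. Under total-read scaling the calls were 10 higher and 0 lower among the receptors and 9 higher and 1 lower among the Smads. Acvrl1, the type I receptor ALK1 of endothelium, rose by 1.63 ± 0.13 log2 units (SE). Acvr2a, an activin receptor, stood at 438, 456 and 449 normalized counts in WT liver and at 237, 257 and 248 in Vps15LKO liver (log2 fold change −0.85 ± 0.09, SE), but under total-read scaling it was −0.13 and not called. Smad9, a Smad of the BMP branch, fell by 1.80 ± 0.21 log2 units (SE), and Jun, a partner of Smads on DNA, rose by 1.75 ± 0.26 log2 units (SE). The common partner Smad4 stood at 715, 832 and 647 normalized counts in WT liver and at 719, 746 and 709 in Vps15LKO liver, which overlapped (log2 fold change −0.01, adjusted p = 0.97), but under total-read scaling it was called higher (0.72). Smad4 was named after its values were seen.

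Among 13 tested ligands outside the TGF-β isoforms and Inhbe, 6 were called higher and 3 lower, with a median log2 fold change of 0.23 (10 and 1 under total-read scaling). The filter on all 6 livers left 11 of them, 4 called higher and 3 lower, with a median of 0.22. Inhbb, the activin B subunit, stood at 26.5, 21.2 and 6.74 normalized counts in WT liver and at 291, 218 and 204 in Vps15LKO liver (log2 fold change 3.81 ± 0.43, SE, and 3.20 with a pseudocount of 10). Inhbc moved the other way, with 1925, 1742 and 1918 in WT and 382, 714 and 354 in Vps15LKO livers (−2.02 ± 0.24, SE). Gdf10, a BMP-like ligand, rose by 1.70 ± 0.16 log2 units (SE). Gdf15, a stress-induced hormone, rose by 1.28 ± 0.42 log2 units (SE, adjusted p = 0.0256). WT replicate 3 of Gdf15 had 74.1 normalized counts against 251 and 265 in the other WT livers, and without it the log2 fold change was 0.68. The call of Gdf15 was lost when any of the 3 Vps15LKO livers was left out (adjusted p = 0.0506 to 0.0608).

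**Figure D5:**
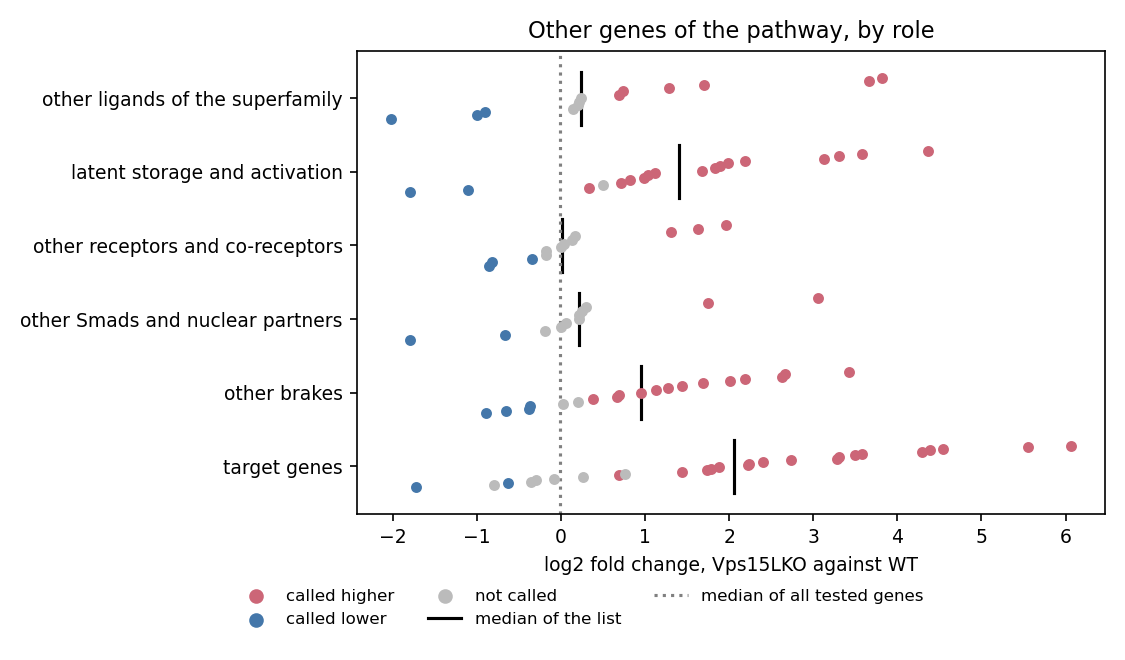
Log2 fold change in Vps15LKO against WT liver of the 99 tested pathway genes outside the 10, in 6 groups by role, coloured by call, with the median of each group as a black bar. Target genes (median 2.05) and genes of latent storage (1.40) lie mostly to the right, while other receptors (0.02) and other Smads (0.21) centre near the dotted median of all tested genes. The medians include genes under 20 normalized counts in 1 or more livers.

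Markers of stellate cells, macrophages, cholangiocytes and lymphocytes were mostly called higher, as were Tgfb1, Tgfb2, Tgfb3, Tgfbr1, Tgfbr2 and the target genes. Among all tested genes 33.5% were called higher and 33.0% lower. Of 18 stellate cell and fibroblast markers 17 were called higher and 1 lower, and their summed level ran from 9613 to 10039 in the WT group and from 32744 to 38430 in the Vps15LKO group (normalized counts). Of 15 macrophage markers 12 were called higher and 1 lower, with sums of 7622 to 9122 in WT and 30726 to 33459 in Vps15LKO livers. All 9 cholangiocyte and progenitor markers were called higher, with sums of 1288 to 1464 in WT and 12748 to 24367 in Vps15LKO livers.

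Of 13 lymphocyte markers 10 were tested and 8 called higher (sums 274 to 411 in WT and 1148 to 1265 in Vps15LKO livers). Of 8 platelet markers 3 were tested and all 3 called higher (81.2 to 91.7 and 214 to 228), while Gp9 and Gp6 held at most 3 reads in any library. Endothelial markers were split, with 6 of 13 higher and 5 lower, and their sums overlapped (11302 to 12468 in WT and 10603 to 12464 in Vps15LKO livers). Under total-read scaling 9 of the 13 were higher (69.2%, beside 66.8% of all tested genes) and 0 lower, and the sums, 8783 to 9748 in WT and 14603 to 15038 in Vps15LKO livers, did not overlap. The hepatocyte markers had 8 lower calls and 0 higher under total-read scaling, beside 11.1% lower and 66.8% higher among all tested genes. With that scaling the calls of the other lists were 17 higher and 0 lower for stellate cells, 13 and 1 for macrophages, 9 and 0 for cholangiocytes, 9 and 0 for lymphocytes and 3 and 0 for platelets. As deposited, 8 of the 10 hepatocyte markers were called lower, beside 33.0% of all tested genes, in the direction of Inhbe and Inhbc. No marker of these lists was at 0 in all 6 livers. The part of these cell types in the changes of the 10 genes was not tested.

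The genes whose profile over the 6 livers lay nearest to that of Tgfb2 were sought among 13170 tested protein-coding genes, by the Euclidean distance of log2 values centred on the WT mean. They were Gpc3 (distance 0.31), an oncofetal glypican, Unc5b (0.31), a netrin receptor, and Cxcr4 (0.33), a chemokine receptor. Gpc3 averaged 47.8 ± 5.95 normalized counts across WT and 739 ± 201 across Vps15LKO livers (SD, n = 3). For Inhbe, the gene that fell, the nearest were Cela2a (0.30), an elastase, Shld2 (0.32), a DNA repair factor, and Lama1 (0.45), a laminin chain. The distance takes in the size of the difference between genotypes, and the 6 livers form only 2 groups.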

How the data were processed

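RNA-Seq was deposited for 3 WT and 3 Vps15LKO livers, grouped by the sample labels. The labels number the libraries 1 to 3 in each genotype and name no animals, so p-values measure the spread between libraries. Reads were cleaned by the authors (SOAPnuke), aligned to GRCm38 (HISAT2) and assigned to genes (featureCounts), and each count was divided by the DESeq2 size factor of its library. The deposited signal, a normalized count, covers 56305 genes. Tool versions and how counting treated strand and multi-mapped reads are not given in the sources used here. Every library proved to hold only whole multiples of 1 read (100% of values, tolerance 0.001 reads), and the chi-square per gene between libraries of a genotype was 14.6 to 40.8, so none was a copy. Symbols and coordinates come from GENCODE M21 (55227 genes matched), and levels per kb use the union of annotated exons.

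Values were compared as log2(normalized count + 1) for genes reaching 20 normalized counts in 3 or more livers (15430 genes), by limma 3.58.1 with a trend (R 4.3.3) and Benjamini-Hochberg adjustment. This scale understates changes of low genes. Calls needed an adjusted p below 0.05 and a change of 1.2-fold or more. The fit was tested on simulated data. Alternatives were pseudocounts of 0.1 and 10, other filters, scalings and thresholds, limma without trend, each liver left out, replicate number as a block, and edgeR 4.0.16, DESeq2 1.42.0 and voom on the recovered reads. The members and gene lists were chosen with earlier results of these data known. Other pathway genes named are those called, not overlapping and averaging 100 or more normalized counts that changed most, at most 4 per list, besides the partners of the ratios, Pik3r4 and the 3 nearest profiles. Plots and tables were made with Python 3.11.15, pandas 2.3.3, numpy 2.4.6 and matplotlib 3.10.9.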

Additional observations from a re-analysis of the deposited data

How the results depend on the processing

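Among the 10 genes, depth limits Tgfb2, Tgfb3 and Ltbp2 most, with as few as 16 reads in a WT library, and some other pathway genes had fewer. Among 22 alternative settings, total-read scaling moved the tested genes as a whole most (by 0.72). It called 10300 of all tested genes higher and 1712 lower, against 5163 and 5099 as deposited, with 0 of the 10 genes and 5 other pathway genes called lower, and Pik3r4 turned to 0.19. At an adjusted p under 0.01, 0 of the 10 genes were called lower and Inhbe was not called. The counts of the 10 genes called higher were 7 to 8 with each liver left out, against 8, and 1 was lower each time. Other pathway genes called higher were 55 to 61 and lower 14 to 17, and all tested genes 4648 to 5152 higher and 4450 to 5070 lower. Of 701 values of single genes under the settings, 686 kept their direction and side of the threshold, 12 were no longer called, 2 (both Smad2) became called and 1 changed sign. DESeq2 and edgeR on the recovered reads each called 8 of the 10 genes higher and 1 lower.

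The replicate numbers did not pair the libraries, since same-numbered WT and Vps15LKO livers deviated from their group means with correlations of −0.01, −0.01 and 0.05. With replicate number as a block, 8 of the 10 genes were called higher and 1 lower, and of all tested genes 5065 were higher and 4983 lower. For the 7 ratios, an exact permutation of the signs of same-numbered differences gave p = 0.25, the smallest that 3 pairs allow, and the log2 differences stayed as given, for example 2.33 for Tgfb2 over Tgfb1. With each liver left out, the ratios ranged from 2.21 to 2.48 for Tgfb2 over Tgfb1 and from −0.67 to −0.38 for Smad7 over Smad3.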

Other observations

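Of the 26 target genes, 2 were called lower in Vps15LKO liver as deposited and 6 were not called, chosen for description after their values were seen. Angptl4, a secreted inhibitor of lipoprotein lipase, stood at 2399, 1551 and 1363 normalized counts in WT liver and at 541, 694 and 372 in Vps15LKO liver (limma log2 fold change −1.73, adjusted p = 0.000418). Cdh2, the N-cadherin that hepatocytes also carry, had 2824, 3246 and 2630.0 in WT and 1879, 1979.7 and 1767 in Vps15LKO livers (−0.62, adjusted p = 0.000843). Under total-read scaling Angptl4 was still called lower (adjusted p = 0.00168 from limma) and Cdh2 was not called (0.10). Klf10, an early response gene, stood at 1212, 966 and 279 normalized counts in WT liver and at 437, 430.3 and 329.6 in Vps15LKO liver. Junb, another early gene, had 2506, 1704 and 723 in WT and 2728, 2164 and 2563 in Vps15LKO livers. In both of these the WT livers spread more widely than the Vps15LKO livers, and WT replicate 3 was the lowest of all 6. Neither was called (log2 fold change −0.80 for Klf10 and 0.76 for Junb, adjusted p = 0.162 and 0.105 from limma), but under total-read scaling Junb was called higher (1.49). Without WT replicate 3, Klf10 was called lower (log2 fold change −1.45, adjusted p = 0.000137 from limma) and Junb was at 0.26 and not called. The other target genes not called were Fn1, Snai2, Id2 and Bhlhe40. Total-read scaling left Fn1 not called (0.37, adjusted p = 0.0549 from limma) and called Snai2 (0.99), Id2 (0.43) and Bhlhe40 (0.64) higher. Of these only Id2 was called without WT replicate 3, where it was lower (−0.41, adjusted p = 0.0286 from limma).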
